A study of Homo sapiens with 9 samples.

Results

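The genes described here encode the core enzymes of glycolysis, from hexokinase to lactate dehydrogenase. They are the rows of the deposited normalized count table whose gene name is HK1, GPI, PFKP, ALDOA, TPI1, PGK1, ENO1, ENO2, PKM or LDHA, which are 10 of the 62710 genes of the table. Of these, 9 had a mean of at least 10 normalized counts over the libraries and were tested among 15230 such genes, and ALDOA did not. The names were chosen for the pathway, with earlier results of these data known. The set leaves out GAPDH and PGAM1, which are described below among the other isozymes and steps.

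The libraries came from A375R, a derivative of the human melanoma line A375 with resistance to PLX4032, an analogue of the BRAF inhibitor vemurafenib. The routine culture medium of these cells held PLX4032 for all groups. Cells were treated for 2 h with 10 µM R4VPL3-1, with 10 µM VHL-r or with the solvent DMSO, in 3 biological repeats each, which makes 9 libraries. R4VPL3-1 is the full PROTAC-like molecule, in which a ligand of the ubiquitin ligase RNF4 is linked to a ligand of the ubiquitin ligase VHL, and VHL-r is the VHL-binding moiety on its own. The sample labels name the control libraries WT and give them no dose, and the methods of the study give DMSO as the control. A single cell line was used.

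Glycolysis splits glucose into pyruvate in the cytosol and yields ATP and NADH, and lactate dehydrogenase then regenerates NAD+ by reducing pyruvate to lactate. Many tumour cells, melanoma among them, run this route at a high rate even when oxygen is present. Several enzyme genes of the pathway are known targets of the hypoxia-inducible factors, whose alpha subunits VHL marks for degradation when oxygen is present, and which bind DNA at the core ACGTG or GCGTG.

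The libraries held 26435568 to 32085626 reads assigned to genes, with a median of 28165279, so that a normalized count is close to 1 read. The first principal component of all tested genes held 48.1% of the variance and set the DMSO libraries apart from both compounds, and the second held 11.2%. Of 11 melanocyte and melanoma markers, 8 had a mean of at least 10, among them SOX10 with a mean of 12050 normalized counts, while the pigment genes MLANA and TYR had means of 0 and 0.35. The 10 enzyme genes together took 1.05% to 1.14% of the reads of a library.

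Reads on ALDOA (ENSG00000149925, chromosome 16 of GRCh38 from 30064164 to 30070457, plus strand), which encodes the aldolase that splits fructose 1,6-bisphosphate, were too few to describe the gene. Its normalized counts were 0.91, 1.97 and 0 in DMSO, 1.0, 0 and 0 in VHL-r and 0.93, 0.99 and 1.07 in R4VPL3-1, which is 0 to 2 reads per library. The annotation places another gene on the same strand, ENSG00000285043, over 100% of the coding bases and 89.76% of the transcript bases of ALDOA, and leaves 168 bases free. That neighbour had a mean of 56.14 normalized counts. In its default mode the counting tool leaves a read unassigned when exons of several genes cover it, so the level of ALDOA mRNA cannot be read from these values, and no fold change is given.

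The ACGTG core in the promoters of these genes was looked up in windows of 250 bases before to 50 after each RefSeq start on GRCh38.p14, on both strands. All 10 genes matched the table, with 23 starts, and 9 of these 23 windows (39.1%) held ACGTG, against 21.4% of all 35116 windows of the same kind. The related core GCGTG was also in 9 of the 23 (39.1%), against 36.5% of all windows, and 15 of the 23 (65.2%) held either core, against 48.4%. LDHA had 5 matches at its first start, PGK1 had 3, and ENO2 and GPI had 1 each, while none of the 7 starts of HK1 and neither ENO1 nor PKM had ACGTG. PFKP and TPI1 had ACGTG at 1 start each, and ALDOA had it at all 3 of its starts, some of whose windows overlap. The core was thus not limited to the genes printed below. The core GCGTG was present at ENO1 (2 matches), at PKM (1) and at 2 of the starts of HK1. The windows of PGK1, ENO2 and LDHA are printed because these 3 genes had the largest differences between treatments, with the match in capitals as it reads on the plus strand (CACGT is ACGTG on the opposite strand). Matches before the start are shown, and the third match of PGK1 lies after it.
PGK1, 202 bases before the start: ggcgtgccggACGTGacaaacggaa
PGK1, 183 bases before the start: acggaagccgCACGTctcactagta
ENO2, 118 bases before the start: ccgcgctcgtACGTGcgcctccgcc
LDHA, 184 bases before the start: ctcccagcgcACGTGgagcagtctg
LDHA, 86 bases before the start: cccgactcacACGTGggttcccgca
LDHA, 73 bases before the start: tgggttcccgCACGTccgccggccc
On GRCh38.p14 and the plus strand these stretches lie at chrX:78104036-78104060 and chrX:78104055-78104079 for PGK1, at chr12:6914452-6914476 for ENO2, and at chr11:18394369-18394393, chr11:18394467-18394491 and chr11:18394480-18394504 for LDHA. The LDHA matches at 184 and 86 bases lie within CACGTG, which holds the core on both strands and is also the E-box bound by other factors. Each of these CACGTG sites counts as 2 among the 5 matches of LDHA and is printed once. A match describes the letters only, and no binding was measured in these libraries.

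Per kilobase of transcript, ENO1 and PKM were the most abundant of the 9 tested enzyme genes. ENO1, the main enolase, stood first with a mean over the 9 libraries of 59255 normalized counts per kilobase of its main annotated transcript (56318 to 61831), and PKM, pyruvate kinase, followed with 36549 (35289 to 38533). LDHA, which makes lactate, with 20840 per kilobase, and TPI1, which interconverts the triose phosphates, with 19560, came next and their ranges overlapped. PGK1, the first ATP-forming enzyme, had 5850 per kilobase. PFKP, the platelet form of the committing phosphofructokinase, had 2004, HK1, a hexokinase, 1874 and GPI, which turns glucose 6-phosphate into fructose 6-phosphate, 1732, and each overlapped its neighbour in this order. ENO2, the neuronal enolase, was the lowest with 763.5 per kilobase (675.7 to 900.0). All other neighbours in the order were separated in every library, and counts per gene do not tell apart the splice forms of PKM.

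**Figure D1:**
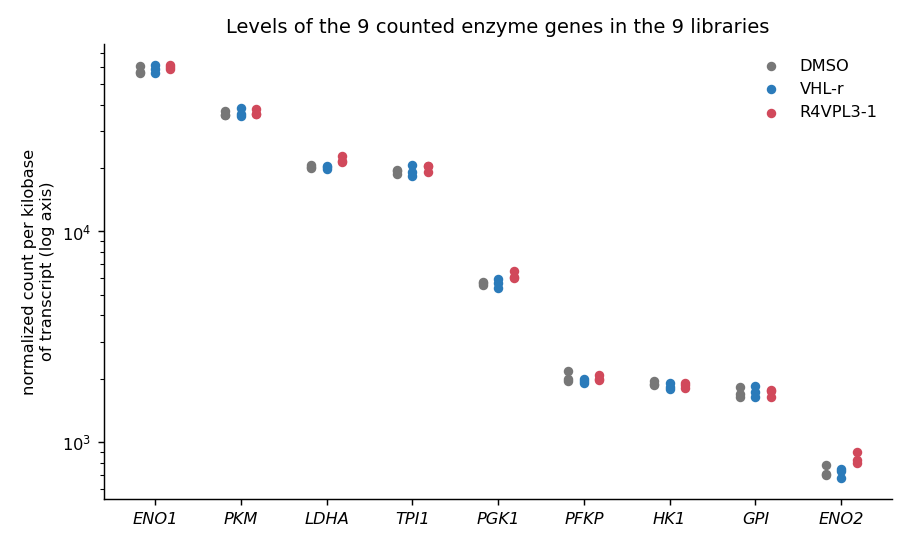
Normalized count per kilobase of transcript (log axis) of the 9 counted enzyme genes, with 1 point for each of the 9 libraries, coloured by treatment. The genes span from 763.5 per kilobase for ENO2 to 59255 for ENO1, while the points of each gene lie close together.

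VHL-r against DMSO asks what the VHL-binding moiety alone does. None of the enzyme genes was called in this comparison, with log2 fold changes between -0.057 for PFKP and 0.019 for ENO1 and PKM. By limma on log2(normalized count + 1), calling genes at 0.05 after Benjamini-Hochberg adjustment, 0 of 9 were called, beside 19.8% of all tested genes, 10.3% higher and 9.51% lower. At an unadjusted p under 0.05 the count was 0 of 9 as well. On the recovered reads edgeR and DESeq2 each called 0, beside 3034 of 15230 and 2623 of 16997 genes over all. The 95% intervals of the 9 differences lay within -0.15 and 0.12. No enzyme gene had groups that did not overlap, beside 34.3% of all tested genes and 17.1% higher. The median log2 fold change of the 9 was 0.0072, and that of all tested genes was -0.0045. In bulk libraries such as these, fewer cells of a kind and less RNA per cell cannot be told apart.

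R4VPL3-1 against DMSO is the comparison of the full molecule with solvent. PGK1 and ENO2 were higher in R4VPL3-1, by 1.1-fold and 1.15-fold, and the other 7 enzyme genes were not called in either direction. Both calls were upward, so 2 of 9 were called, beside 24.9% of all tested genes, 13.1% higher and 11.8% lower. Among genes with a mean of at least 1000, which all 9 enzyme genes reach, 26.7% were called and 11.2% were higher. The groups did not overlap for 3 of the 9, PGK1, ENO2 and LDHA, all higher in R4VPL3-1, beside 38.0% of all tested genes, 19.1% higher. The median of the 9 log2 fold changes was 0.049, and that of all tested genes was -0.0063.

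R4VPL3-1 against VHL-r compares the full molecule with its VHL-binding part at the same dose and time. None of the enzyme genes passed the test in this comparison, and the log2 fold changes ran from -0.015 for GPI to 0.23 for ENO2. By limma 0 of 9 were called, beside 1.87% of all tested genes, 1.14% higher and 0.729% lower. At an unadjusted p under 0.05 the count was 3 of 9, and the share of all tested genes at that threshold was not computed. By edgeR and DESeq2 1 was called each, ENO2, beside 297 of 15230 and 311 of 15334 genes over all. The same 3 genes, PGK1, ENO2 and LDHA, had groups that did not overlap, higher in R4VPL3-1, beside 14.1% of all tested genes and 6.99% higher. These 3 comparisons share libraries, and each group enters 2 of them. The median was 0.045, beside -0.0056 over all tested genes, and 8 of the 9 differences were above 0. These signs are not independent, since VHL-r replicate 1 had the lowest VHL-r value for 9 of 9. Without that library ENO1 (-0.0041), HK1 (-0.0105) and PKM (-0.0226) were below 0.

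**Figure D2:**
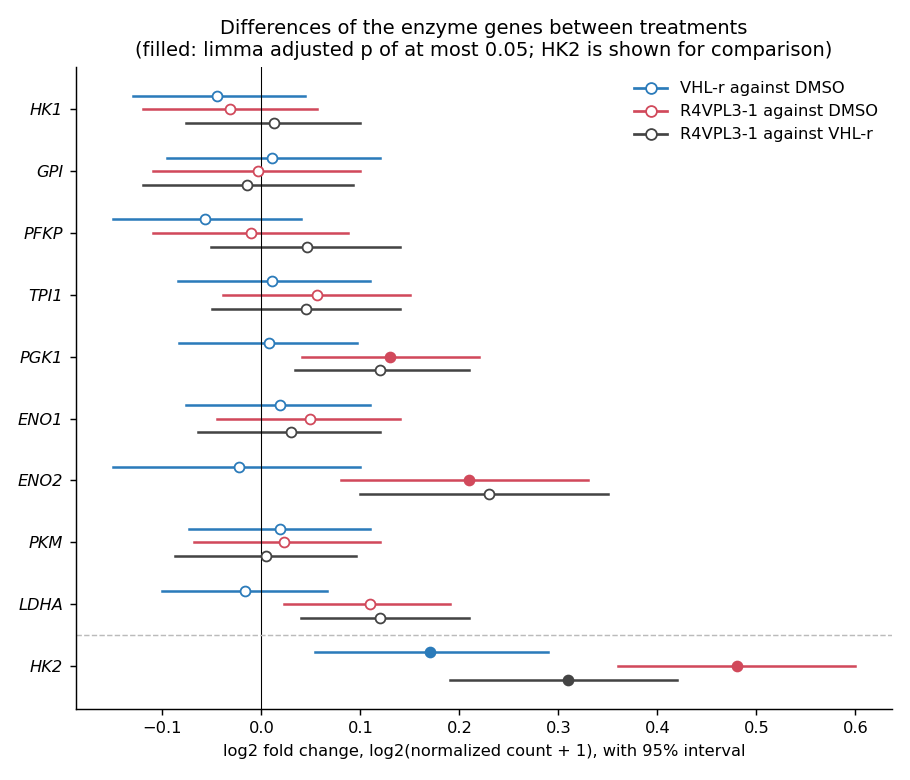
Log2 fold change with its 95% interval for the 9 enzyme genes and HK2 in the 3 comparisons, with filled points where limma's adjusted p is at most 0.05. The blue intervals of VHL-r against DMSO all include 0 above the dashed line, and PGK1 and ENO2 are filled in R4VPL3-1 against DMSO.

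Of the core genes of the preparatory phase, HK1, GPI, PFKP and TPI1 were tested, and none of them was called in any comparison. ALDOA was not tested, and the hexokinase HK2, which is outside the core, is described below. HK1 (ENSG00000156515, chromosome 10 from 69269984 to 69401884), which phosphorylates glucose, had 7056, 6763 and 6795 normalized counts in DMSO, 6450, 6629 and 6907 in VHL-r and 6528, 6872 and 6759 in R4VPL3-1. Its groups overlapped in all comparisons, and the 95% interval of R4VPL3-1 against VHL-r ran from -0.076 to 0.1 on the log2 scale. GPI (ENSG00000105220, chromosome 19 from 34359480 to 34402413) had 6784 to 7586 in DMSO, 6801 to 7634 in VHL-r and 6784 to 7336 in R4VPL3-1. The lowest values of its 3 treatments were thus nearly the same. A neighbour on the same strand covers 13.14% of the transcript bases of GPI, and 8.57% of its 100-base stretches also occur in another gene. PFKP (ENSG00000067057, chromosome 10 from 3066333 to 3137718) had 5123 to 5693, 4995 to 5252 and 5168 to 5487 in DMSO, VHL-r and R4VPL3-1. TPI1 (ENSG00000111669, chromosome 12 from 6867119 to 6870948), with 9.03% of its stretches shared, had 25374 to 26353, 24829 to 27984 and 25918 to 27609. Neither gene separated any pair of treatments.

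In the pay-off phase, PGK1 (ENSG00000102144, chromosome X from 77910739 to 78129295) had 27580, 27314 and 26801 normalized counts in DMSO, 26044, 27494 and 28619 in VHL-r, and 29030, 29369 and 31093 in R4VPL3-1. Every R4VPL3-1 library thus lay above the other 6 libraries. Against DMSO its log2 fold change was 0.13 (95% interval 0.041 to 0.22, limma adjusted p = 0.0299). This call was lost without any filter on low values (0.0663), and when DMSO replicate 2 (0.0818), DMSO replicate 3 (0.0883), R4VPL3-1 replicate 2 (0.0512) or R4VPL3-1 replicate 3 (0.113) was left out. Against VHL-r the difference was 0.12 (0.034 to 0.21, limma adjusted p = 0.225). ENO1 (ENSG00000074800, chromosome 1 from 8861000 to 8879190, minus strand), which forms phosphoenolpyruvate, had 101053 to 108506 in DMSO, 100303 to 110121 in VHL-r and 105430 to 109968 in R4VPL3-1, with overlap throughout. PKM (ENSG00000067225, chromosome 15 from 72199029 to 72231819, minus strand) had 81961 to 85581, 81341 to 88819 and 83094 to 87868, and its R4VPL3-1 against VHL-r interval ran from -0.087 to 0.096.

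ENO2 (ENSG00000111674, chromosome 12 from 6913745 to 6923698), the enolase form first described in neurons and a known hypoxia-responsive gene, had the largest fold changes among the 9 in both comparisons of R4VPL3-1. Its normalized counts were 1793, 1617 and 1614 in DMSO, 1550, 1680 and 1715 in VHL-r, and 2064, 1899 and 1831 in R4VPL3-1, so all R4VPL3-1 libraries were above all others. Against DMSO the log2 fold change was 0.21 (95% interval 0.08 to 0.33, limma adjusted p = 0.0153). The adjusted p was 0.0754 without DMSO replicate 2, 0.0644 without DMSO replicate 3 and 0.103 without R4VPL3-1 replicate 1. Against VHL-r it was 0.23 (0.1 to 0.35, limma adjusted p = 0.0575), just past the threshold. Under 7 of the alternatives ENO2 was called in that comparison, edgeR (adjusted p = 0.0394), DESeq2 (0.0315) and the fit without R4VPL3-1 replicate 3 (0.0286) among them, and over all alternatives its adjusted p ran from 0.0286 to 0.383. ENO2, LDHA and HK2 are in a gene list that the study drew from these libraries, so their direction here is not independent evidence.

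LDHA (ENSG00000134333, chromosome 11 from 18394560 to 18408425) had 45069, 46571 and 45498 normalized counts in DMSO, 44190, 45555 and 45772 in VHL-r, and 48514, 48110 and 51041 in R4VPL3-1. The R4VPL3-1 libraries were again above the other 6. The log2 fold change was 0.11 against DMSO (95% interval 0.023 to 0.19, limma adjusted p = 0.0574) and 0.12 against VHL-r (0.04 to 0.21, limma adjusted p = 0.166). Against DMSO, 6 of the alternatives called LDHA, with adjusted p of 0.0414 after TMM scaling, 0.033 by edgeR and 0.0292 by DESeq2. Its partner LDHB, the form that favours pyruvate, is covered by a neighbour on the same strand over 93.51% of its coding bases, and no ratio of LDHA to LDHB could be taken.

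**Figure D3:**
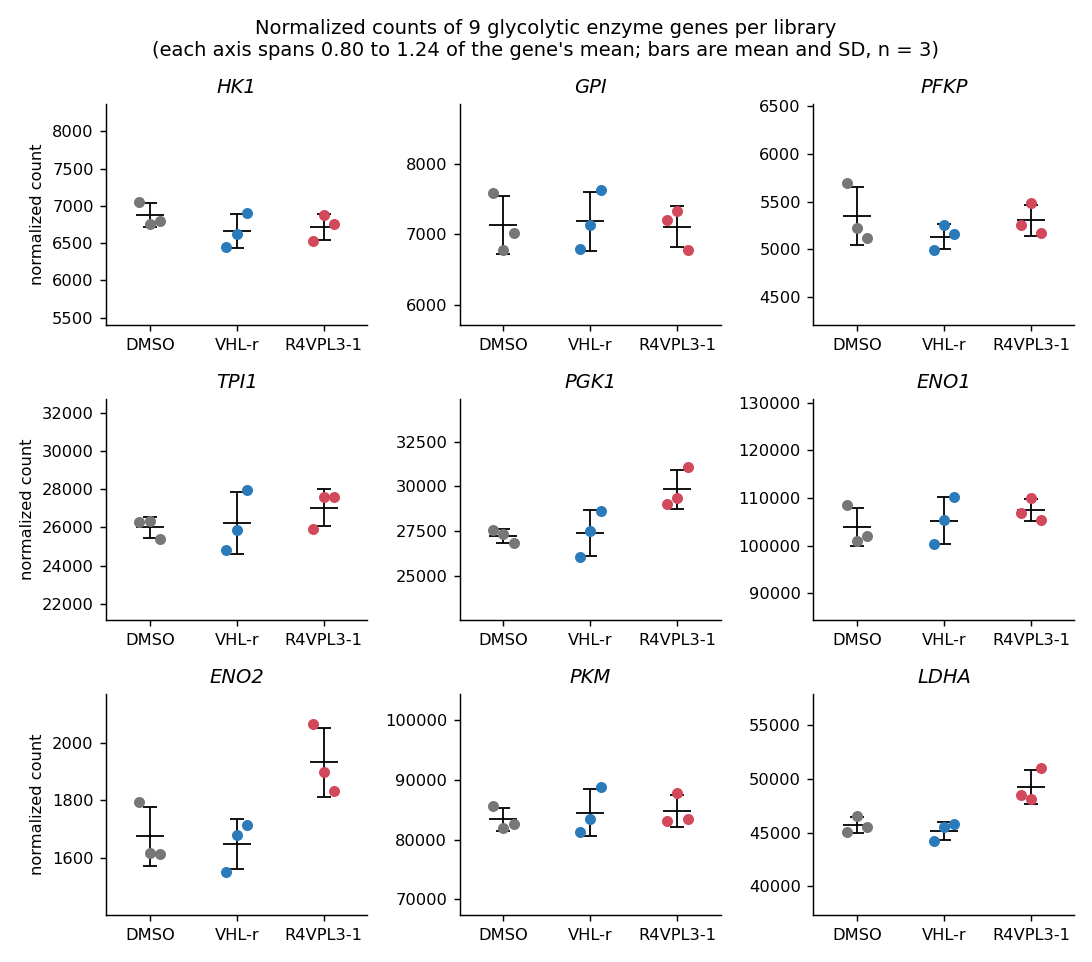
Normalized counts of the 9 enzyme genes in the 3 libraries of each treatment, with mean and SD. In the panels of PGK1, ENO2 and LDHA the R4VPL3-1 points lie above all others, and in the other 6 panels the treatments overlap.

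In some libraries the enzyme genes deviated from their treatment mean in the same direction. In VHL-r replicate 1, 9 of 9 had the lowest value of the 3 VHL-r libraries, and in VHL-r replicate 3, 8 of 9 had the highest. DMSO replicate 1 held the highest DMSO value for 7 of 9. The mean deviation of the 9 genes from their treatment mean was -0.062 on the log2 scale in VHL-r replicate 1, 0.058 in VHL-r replicate 3 and 0.048 in DMSO replicate 1. Over all tested genes the median deviation, not the mean, was 0.002, -0.003 and 0.007, and the scaling between libraries tends to hold such a median near 0. The other libraries were mixed or closer to 0. In R4VPL3-1 replicates 1, 2 and 3 the mean deviations of the 9 genes were -0.01, 0.019 and -0.009, and in DMSO replicates 2 and 3 they were -0.021 and -0.028. The SD within treatments, pooled over the 3 treatments, was smallest for LDHA, at 0.034 on the log2 scale, and largest for ENO2, at 0.084. In R4VPL3-1 against VHL-r, 0 of 9 were called both without VHL-r replicate 1 and without VHL-r replicate 3. What sets these libraries apart was not tested.

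**Figure D4:**
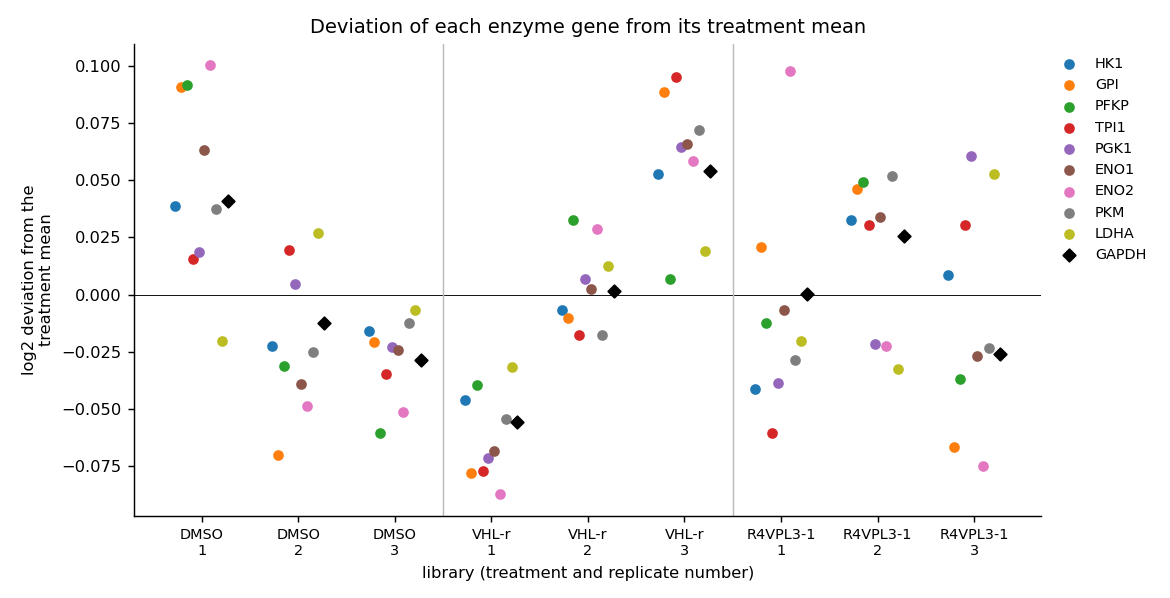
Log2 deviation of each enzyme gene, and of GAPDH as black diamonds, from its treatment mean in each of the 9 libraries. The points of VHL-r replicate 1 all lie below 0 and those of VHL-r replicate 3 all above, with mean deviations of -0.062 and 0.058 for the 9 genes.

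Among 5853 other genes with a mean of at least 1000, the centred log2 values closest to the mean of the enzyme genes over the 9 libraries were those of GAPDH, with a root mean square distance of 0.021. GAPDH catalyses the step between TPI1 and PGK1 in the same pathway. The next were NUDC with 0.022 and SHMT2 and FKBP4 with 0.023. Libraries of the same treatment share their treatment in this measure, and it describes a likeness over 9 libraries only.

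Among the isozymes outside the core, HK2 was called in all 3 comparisons. HK2, the inducible hexokinase, which binds mitochondria as HK1 does, had 6642, 5824 and 5910 normalized counts in DMSO, 6900, 6750 and 7021 in VHL-r, and 9153, 8690 and 7766 in R4VPL3-1. It rose by 0.48 on the log2 scale in R4VPL3-1 against DMSO (95% interval 0.36 to 0.6, limma adjusted p = 1.75e-06) and by 0.31 against VHL-r (0.19 to 0.42, limma adjusted p = 0.00279). Over the alternatives these adjusted p stayed at or below 3.59e-05 and 0.0334. In VHL-r against DMSO it was higher by 0.17 (limma adjusted p = 0.0362). That call was lost without a filter (0.0649) and without DMSO replicate 2 (0.175), DMSO replicate 3 (0.126), VHL-r replicate 1 (0.0832), VHL-r replicate 2 (0.0704) or VHL-r replicate 3 (0.0941). Within a library, HK2 was 86.1% to 94.1% of HK1 in DMSO, 102.0% to 107.0% in VHL-r and 115.0% to 140.0% in R4VPL3-1, in normalized counts and not per length. The 3 ranges of this ratio did not overlap, and each exact permutation test, two-sided, gave p = 0.1, the smallest that 3 against 3 allows, and 0.18 after adjustment over 9 tests of ratios.

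ENO2 as a share of ENO1 was 1.58% to 1.65% in DMSO, 1.55% to 1.59% in VHL-r and 1.73% to 1.93% in R4VPL3-1. The log2 ratio in R4VPL3-1 lay 0.2 above that in VHL-r and 0.16 above that in DMSO, without overlap, and the exact permutation p was 0.1 for both (adjusted 0.18). For VHL-r against DMSO the difference was -0.041 with overlap (exact p = 0.2, adjusted 0.3). PFKP to PFKL, the liver form, gave mean log2 ratios of 1.37 in DMSO, 1.34 in VHL-r and 1.31 in R4VPL3-1, with overlap in all comparisons (exact p = 0.4 to 0.9).

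Of 21 other glycolytic isozymes and steps 10 were tested, and HK2 was the gene called in each comparison, upward, with 0 lower. Among all tested genes 24.9% were called in R4VPL3-1 against DMSO, 19.8% in VHL-r against DMSO and 1.87% between the compounds. HKDC1, a hexokinase-like gene, had -0.38 in R4VPL3-1 and -0.39 in VHL-r against DMSO and was not called, but was called lower in R4VPL3-1 against DMSO without R4VPL3-1 replicate 3 and, in both comparisons with DMSO, with a replicate block. GAPDH had a log2 fold change of 0.033 against VHL-r and 0.068 against DMSO in R4VPL3-1, and was not called. PGAM1, which moves the phosphate of phosphoglycerate, had 0.12 (95% interval 0.034 to 0.22, limma adjusted p = 0.225) and 0.085, and 46.21% of its 100-base stretches also occur in another gene.

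Among the transporters SLC2A3 was called in all 3 comparisons. SLC2A3, the high-affinity glucose transporter GLUT3, had 853.6, 858.9 and 818.4 normalized counts in DMSO, 1303, 1351 and 1437 in VHL-r and 1853, 1809 and 1687 in R4VPL3-1. It rose by 0.69 on the log2 scale in VHL-r against DMSO (limma adjusted p = 2.12e-08), by 1.08 in R4VPL3-1 against DMSO (1.29e-11) and by 0.39 in R4VPL3-1 against VHL-r (0.000315). Of its 100-base stretches, 7.22% also occur in another gene. SLC2A1, the widely expressed transporter GLUT1, was not called, with -0.098, 0.034 and 0.13 in the same order. Without DMSO replicate 3 it was called lower in VHL-r against DMSO (0.0301), and the transport list then held 3 calls, 1 of them lower. SLC16A1, a lactate transporter, was higher in VHL-r than in DMSO by 0.15, a call lost without DMSO replicate 2 (limma adjusted p = 0.0521) or VHL-r replicate 2 (0.0513). In R4VPL3-1 against DMSO SLC16A1 had 0.094 (limma adjusted p = 0.0881) and was called only after upper quartile or nuclear total scaling. Of the 9 tested transport genes SLC2A3 and SLC16A1 were all that passed in the main fit. This gave 1 higher in R4VPL3-1 against DMSO and 1 against VHL-r, beside 13.1% and 1.14% of all tested genes. In VHL-r against DMSO 2 were higher, beside 10.3%. Without DMSO replicate 3, 2 were called in R4VPL3-1 against DMSO.

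Genes that regulate the flux held calls in both directions. Of 10 tested, 4 were higher and 5 lower in R4VPL3-1 against DMSO, 3 higher and 4 lower in VHL-r against DMSO, and 2 higher and 1 lower in R4VPL3-1 against VHL-r. The shares of all tested genes called higher and lower were 13.1% and 11.8%, 10.3% and 9.51%, and 1.14% and 0.729% in the same order. TXNIP, an arrestin-like inhibitor of glucose uptake, had 1210, 1665 and 1535 normalized counts in DMSO, 4483, 4419 and 4342 in VHL-r and 6984, 6537 and 6316 in R4VPL3-1. That is 3.03-fold higher in VHL-r and 4.53-fold higher in R4VPL3-1 than in DMSO (limma adjusted p = 8.33e-12 and 2.39e-14), and 1.5-fold higher in R4VPL3-1 than in VHL-r (6.7e-05). PDP1, a phosphatase that activates pyruvate dehydrogenase, had 4914, 4659 and 3849 in DMSO, 2586, 2655 and 2352 in VHL-r and 1951, 2162 and 2067 in R4VPL3-1. It fell by 0.82 and 1.11 on the log2 scale in VHL-r and R4VPL3-1 against DMSO, and its 3 groups did not overlap.

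PDK1, a kinase that inhibits pyruvate dehydrogenase, was raised in R4VPL3-1, by 0.33 on the log2 scale against DMSO and by 0.4 against VHL-r. Without R4VPL3-1 replicate 1, whose value of 1458 was the highest, the adjusted p was 0.0747 and 0.157. Against VHL-r the PDK1 call was also lost without VHL-r replicate 2 (0.0561) or VHL-r replicate 3 (0.123) and with limma's robust option (0.0509). PDP1 in R4VPL3-1 against VHL-r, at -0.3 (limma adjusted p = 0.0296), was not called without VHL-r replicate 1 (0.105), VHL-r replicate 2 (0.211), R4VPL3-1 replicate 1 (0.172) or R4VPL3-1 replicate 3 (0.0529), nor with the robust option (0.0795). Without R4VPL3-1 replicate 1 or VHL-r replicate 2, 1 regulator was called in this comparison in place of 3.

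Other regulators differed from DMSO alike in direction under both compounds. PFKFB4, which makes and breaks down fructose 2,6-bisphosphate, fell by 0.56 in VHL-r and 0.58 in R4VPL3-1 on the log2 scale, and PDP2, a second phosphatase of pyruvate dehydrogenase, fell by 0.39 and 0.46. PFKFB3, the form that mostly makes fructose 2,6-bisphosphate, rose by 0.26 and 0.18, the latter not called without DMSO replicate 2 (0.0734) or R4VPL3-1 replicate 2 (0.0546). The kinase genes gave mixed directions. PDK4 fell by 0.52 in VHL-r and 1.04 in R4VPL3-1, PDK3 rose by 0.23 and 0.22, and PDK2 fell by 0.23 in R4VPL3-1. PDK4 in VHL-r was called under 7 of 18 alternatives and lost under 11, among them pseudocount 0.1, no filter, all 3 scalings and DESeq2 (0.0765), with adjusted p of up to 0.232. The PDK3 call was lost by DESeq2 in VHL-r (0.0625) and in R4VPL3-1 (0.0563), without a filter (0.0684 and 0.0642), and under several of the fits that left out 1 library, with up to 0.168 and 0.235. PDK2 was lost by DESeq2 (0.0614) and under 4 of the fits that left out 1 library, with up to 0.108.

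**Figure D5:**
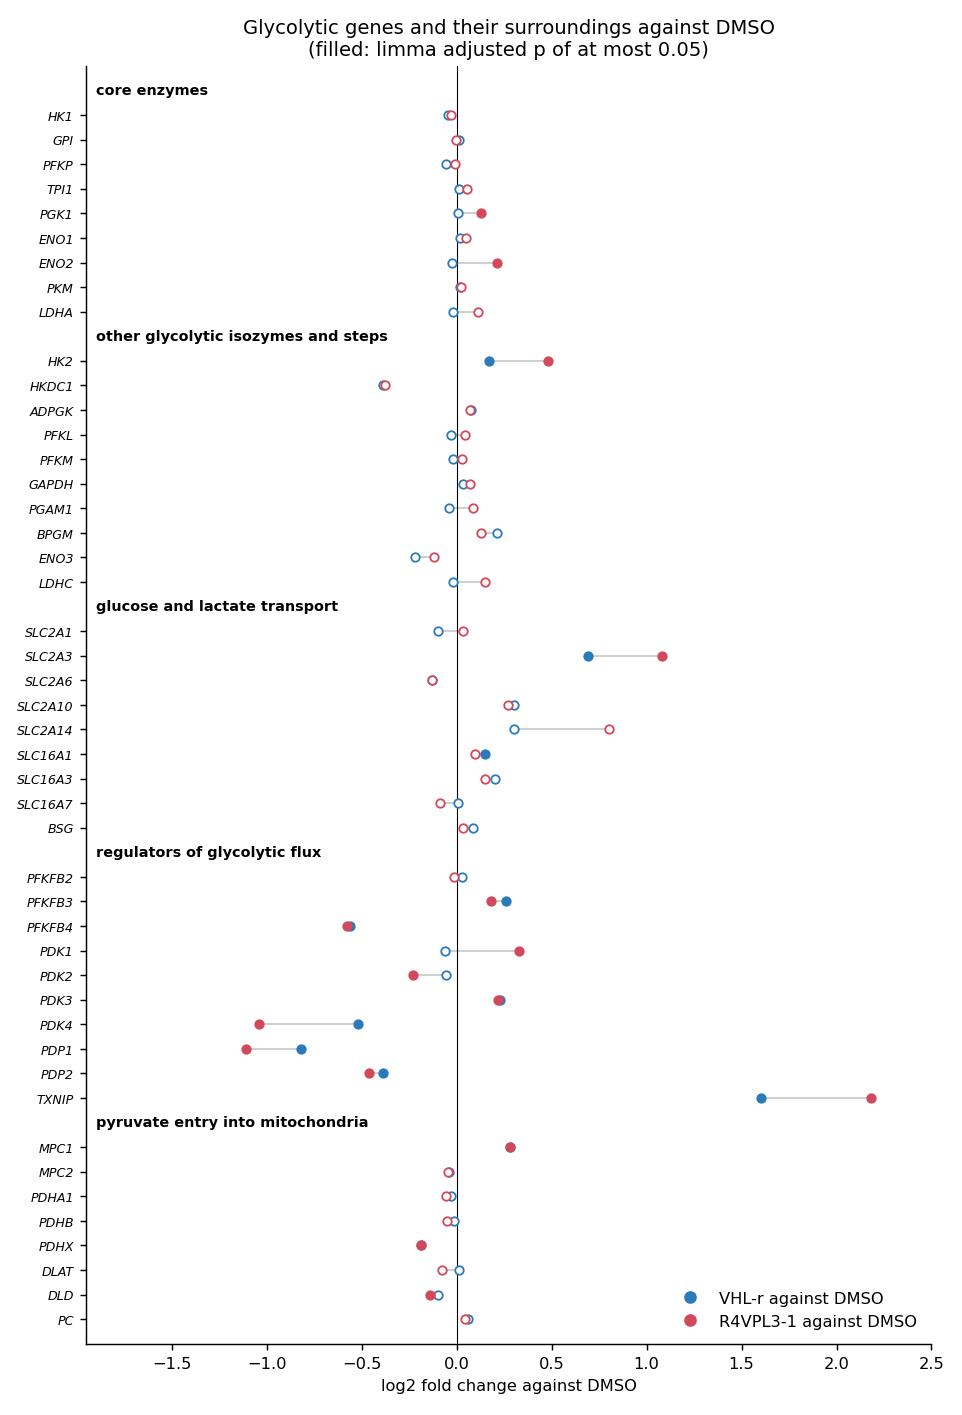
Log2 fold change against DMSO for VHL-r (blue) and R4VPL3-1 (red) of the core enzymes and of 4 lists around them, filled where limma's adjusted p is at most 0.05. The core enzymes lie between -0.057 and 0.21, while TXNIP reaches 2.18 and PDP1 -1.11 in R4VPL3-1.

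Where pyruvate enters mitochondria, 8 genes were tested. MPC1, a subunit of the mitochondrial pyruvate carrier, rose by 0.28 on the log2 scale in each of VHL-r and R4VPL3-1 against DMSO. PDHX, a structural part of the pyruvate dehydrogenase complex, fell by 0.19 in each, and DLD, its dihydrolipoamide dehydrogenase, fell by 0.14 in R4VPL3-1. The DLD call was lost without DMSO replicate 1 (0.0515), 2 (0.128) or 3 (0.0587), and without R4VPL3-1 replicate 1 (0.159) or 2 (0.0962), and also without a filter (0.065) and after upper quartile (0.0659) or nuclear total (0.0514) scaling. The call of PDHX in R4VPL3-1 was lost without R4VPL3-1 replicate 1 (0.0596). Against DMSO, R4VPL3-1 gave 1 higher and 2 lower, and 1 call in all without R4VPL3-1 replicate 1, and VHL-r gave 1 higher and 1 lower. These 3 and 2 of 8 stand beside 24.9% and 19.8% of all tested genes. In R4VPL3-1 against VHL-r limma called 0 of the 8, with 0 at an unadjusted p under 0.05 and 0 by edgeR and by DESeq2.

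Known targets of the hypoxia-inducible factors outside glycolysis are given beside the enzyme genes for scale. Of 18 tested, 6 were higher and 0 lower in R4VPL3-1 against VHL-r, beside the 1.14% of all genes called higher. They were DDIT4 (2.67 on the log2 scale), ANKRD37 (1.47), ADM (0.9), BNIP3 (0.54), VEGFA (0.44) and KDM3A (0.42), while the core enzymes reached 0.23 at most. Against DMSO, 11 of the 18 were higher in R4VPL3-1, beside 13.1%, and 0 were lower. These were DDIT4 (2.14), ANKRD37 (1.94), EGLN3 (1.46), KDM3A (0.93), BNIP3 (0.66), NDRG1 (0.59), BHLHE40 (0.35), VEGFA (0.32), BNIP3L (0.28), P4HA1 (0.26) and P4HA2 (0.18). The calls of BHLHE40 and P4HA2 were lost under 3 each of the fits that left out 1 library, with adjusted p of up to 0.0827 and 0.14. BHLHE40 was also not called by DESeq2 (0.0613) or with the robust option (0.0991). In VHL-r against DMSO, EGLN3 (1.51), KDM3A (0.51), ANKRD37 (0.47), NDRG1 (0.34) and BHLHE40 (0.34) were higher, while ADM (-0.6) and DDIT4 (-0.53) were lower. There DESeq2 did not call DDIT4 (0.0553) or BHLHE40 (0.104), nor did limma with its robust option (0.158 and 0.126), and BHLHE40 was also lost without DMSO replicate 2 (0.114) or VHL-r replicate 2 (0.0656). Whether the list and the core enzymes differ was not tested.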

How the data were processed

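Poly(A) RNA of 9 libraries was sequenced in strand-specific libraries, with 1 read of 100 bases per fragment. The authors aligned reads to GRCh38 with STAR, counted them by gene (htseq-count, reverse strand setting), and divided the counts by DESeq2 (1.36.0) size factors. The deposited values are this normalized signal, with 2 decimals. Dividing by what 1 read is worth in each library gave whole reads for 100% of values (tolerance 0.1 read).

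The main test was limma (3.58.1, R 4.3.3) with trend on log2(value + 1) over the 15230 genes averaging 10 or more, in a single-factor fit of all 9 libraries, with Benjamini-Hochberg adjustment and 95% intervals. Fold changes on this scale understate low genes. The script was tested on simulated data. Isozyme ratios were compared by exact permutation. Alternatives were pseudocounts of 0.1 and 5, no filter, a mean of at least 50, 3 scalings, the robust option, a replicate block, edgeR (4.0.16), DESeq2 (1.42.0), fits of the 6 libraries of a comparison, a threshold of 0.01 and leaving out each library. Transcript lengths and overlaps came from the GENCODE annotation of GRCh38, which matched 62639 of 62710 genes, and promoters from RefSeq. No column was left unused.

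The genes and the lists were chosen with earlier results of these data known. Named are the 10 enzymes, the genes of the ratios, genes of the lists called in a comparison, and the 5 genes of most similar pattern, of which 1 is not reported here. Nothing but the study's methods says that the repeats are separate cultures.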

Additional observations from a re-analysis of the deposited data

How the results depend on the processing

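The 0 of 9 enzyme genes called in VHL-r against DMSO stayed 0 under all alternatives run. In R4VPL3-1 against VHL-r the count was 1 (ENO2) in place of 0 after TMM scaling, after upper quartile scaling, with the robust option, by edgeR and by DESeq2, and 0 to 1 when 1 library was left out, with 1 without R4VPL3-1 replicate 3. In R4VPL3-1 against DMSO it was 3 in place of 2 after TMM, upper quartile or nuclear total scaling, with the robust option, by edgeR and by DESeq2, with LDHA as the added gene, 1 without a filter, 0 at an adjusted p of at most 0.01, and 0 to 2 when 1 library was left out, with 0 without DMSO replicate 2 or DMSO replicate 3. Some differences close to 0 changed sign, none of them called. With another scaling or test GPI in R4VPL3-1 against DMSO was 0.0044 (TMM), 0.0144 (upper quartile), 0.0075 (nuclear total) and 0.0055 (edgeR) in place of -0.0033, PFKP was 0.0069 (upper quartile) in place of -0.011, and PKM in R4VPL3-1 against VHL-r was -0.0006 (nuclear total) in place of 0.0047. When 1 library was left out, the log2 fold changes that changed sign ran for ENO1 from -0.0041 to 0.0633, GPI from -0.0539 to 0.0294, HK1 from -0.0105 to 0.0389 and PKM from -0.0226 to 0.0408 in R4VPL3-1 against VHL-r. They ran for ENO1 from -0.0143 to 0.053, ENO2 from -0.0519 to 0.0271, GPI from -0.0327 to 0.057, PGK1 from -0.0251 to 0.0429, PKM from -0.0174 to 0.0461 and TPI1 from -0.0364 to 0.0499 in VHL-r against DMSO. In addition they ran for GPI from -0.0385 to 0.0421, PFKP from -0.0411 to 0.0349 and PKM from -0.0025 to 0.0421 in R4VPL3-1 against DMSO. For the isozyme ratios, leaving out 1 of 3 libraries cannot move a difference by more than the spread it was set against. Nothing is therefore concluded from that check. Over all tested genes R4VPL3-1 against VHL-r gave 182 calls without R4VPL3-1 replicate 1 in place of 285. The cause of these changes was not tested. The lowest count behind a tested enzyme gene was 1549 reads, for ENO2 in VHL-r.

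With a replicate block, 1 enzyme gene (ENO2, adjusted p = 0.032) was called in R4VPL3-1 against VHL-r, 2 in R4VPL3-1 against DMSO, with none for VHL-r relative to DMSO, and the calls over all tested genes were 389, 4241 and 3451 in place of 285, 3792 and 3016. With the block HKDC1 was called lower in both comparisons with DMSO, so that the list of other glycolytic isozymes held 2 calls in place of 1 in each, and the transport list held 2 in place of 1 in R4VPL3-1 against DMSO. The deviations of libraries with the same replicate number correlated by -0.006 to 0.121, above 0.1 in 2 of 9 pairs. For libraries with different numbers the correlations ran from -0.148 to 0.098. The column headers number the libraries by replicate, with the treatments of each replicate in sequence. Whether libraries of the same number form a set was not tested. The main fit has no block because the study describes a single-factor model.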

Other observations

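In R4VPL3-1 against DMSO, 1 of 9 tested genes of the pentose phosphate pathway and 1 of 2 of gluconeogenesis were called, beside 24.9% of all tested genes. PGD, the second dehydrogenase of the pentose phosphate pathway, was higher in R4VPL3-1 than in DMSO by 0.14 on the log2 scale, and this call was lost without DMSO replicate 2 (limma adjusted p = 0.0913), DMSO replicate 3 (0.102), R4VPL3-1 replicate 1 (0.0745) or R4VPL3-1 replicate 2 (0.111) and without a filter (0.0537). In R4VPL3-1 against VHL-r limma called 0 of the 9, with 0 at an unadjusted p under 0.05 and 0 by edgeR and DESeq2. In VHL-r against DMSO it called 0, with 1 at an unadjusted p under 0.05 and 0 by edgeR and DESeq2.

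Of 7 genes of gluconeogenesis only 2 were tested. PCK2, the mitochondrial form of the enzyme that makes phosphoenolpyruvate from oxaloacetate, was higher in R4VPL3-1 than in DMSO by 0.22 on the log2 scale. It was not called by DESeq2 (0.0609), without a filter (0.0576), or without any one of DMSO replicates 1 to 3 and R4VPL3-1 replicates 1 and 2, with a limma adjusted p of up to 0.205.

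The summed level of 11 melanocyte and melanoma markers was 49557 to 52485 normalized counts in DMSO, 39015 to 45626 in VHL-r and 38152 to 42179 in R4VPL3-1. CSPG4, MCAM and SOX10 held most of this sum, and SOX10 ranged from 7900 to 17935 between libraries. Of 8 tested markers, 3 were called lower in R4VPL3-1 against DMSO, beside 11.8% of all tested genes. In VHL-r against DMSO 2 were lower, beside 9.51%, and in R4VPL3-1 against VHL-r 1, beside 0.729%, with 0 higher in each. The summed level of 6 epithelial markers, of which KRT18 held most with a mean of 6434, was 6962 to 8005 in DMSO, 6555 to 7038 in VHL-r and 6294 to 6607 in R4VPL3-1. The 4 leukocyte markers summed to 8.56 to 26.85 and the 3 endothelial markers to 18.01 to 32.56 over all libraries, and the 4 fibroblast markers to 1403 to 3087. The part of these levels in the differences of the enzyme genes was not tested.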
